A study of Mus musculus with 2 samples.

Results

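The T cell checkpoint and exhaustion genes followed here number 7: Pdcd1, Lag3, Havcr2, Tigit, Tox, Entpd1 and Cd160. They were chosen by name, and all 7 of 7 were found among the 33696 mouse genes of the matrix. Their levels are CPM, the UMIs of a gene (each UMI a counted RNA molecule) scaled to all mouse UMIs of the class and summed over the cells of a mouse and a deposited cell type or cluster. Protein was not measured.

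As background, Pdcd1 (PD-1), Lag3, Havcr2 (TIM-3) and Tigit encode inhibitory receptors that activated T cells place on their surface and that dampen signalling when they meet their ligands. Antigen that persists in a tumour drives CD8 T cells towards exhaustion, a state with several of these receptors at once, which the transcription factor Tox helps to install and keep. Entpd1 (CD39) is an ectoenzyme that breaks down extracellular ATP and is also made by regulatory T cells and myeloid cells, and Cd160 encodes a receptor shared by NK cells and some CD8 T cells.

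Tumours grew under the skin from MC38, a colon carcinoma line of the mouse, and their CD45+ immune cells were sorted and profiled in 1 10x Genomics 3' library. All mice, Untreated ones included, carried human Fc gamma receptors and the same implant of 2000000 MC38 cells. The groups were N297A (described as an agonist with a null Fc, 2 mice), GA-aFuc (an agonist with an enhanced Fc, 1 mouse), GITR/Syn GA-aFuc (a non-agonist with an enhanced Fc, 1 mouse) and Untreated (2 mice; the labels also speak of PBS). The antibodies were human IgG1 against mouse GITR, a costimulatory receptor of T cells, given into the peritoneum as 2 doses of 100 µg at an interval of 3 days, and cells were taken on day 4 of treatment. The labels give 3 mice per treatment, and this library holds 6 mice, told apart by their hashtag. Age and sex are not given in the sources used here.

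The 8716 cells used comprised 1379 to 1519 cells and 16479710 to 19339165 mouse UMIs per mouse. They included 907 CD8 T cells (82 to 221 per mouse), 723 NK cells (74 to 166), 97 CD4 T cells (12 to 24), 74 Tregs (3 to 24), 4104 macrophages and 2486 monocytes. Markers fitted the CD8, NK and Treg names in large part: Cd8b1 reached 653 to 1023 CPM in the 5 CD8 clusters, Ncr1 188 to 271 CPM in the 5 NK clusters and Foxp3 265 CPM in Tregs. Cd8b1 was also at 761 CPM in plasmacytoid dendritic cells. Some names were less clean. CD8 cluster 23 held Cd8a at 332 CPM, against 800.3 CPM in cluster 16, beside Klrb1c at 59.1 CPM and Trdc at 60.2 CPM. CD4 cluster 35 held Cd4 at 196 CPM beside the gamma-delta T cell gene Trdc at 312 CPM and Il17a at 155 CPM, and CD4 cluster 59 held Cd8b1 at 393 CPM beside Cd4 at 227 CPM. CD8 cluster 44 was led by the myeloid genes Chil3 (96.3 CPM) and Lyz2 (672 CPM). NK cluster 48 held the T cell gene Cd3g at 169 CPM, and the 5 CD8 T markers together spanned 0 to 1055 CPM over its mice. The part of these transcripts in the levels below was not tested. RNA outside cells was summed over 163454 barcodes with 10 to 100 UMIs. It held 75.4 CPM of Havcr2, 108 CPM of Entpd1, 23 CPM of Pdcd1 and 15.5 CPM of Lag3. The other 3 genes were at 1.26 to 6.71 CPM there. The share of this RNA among the UMIs of cells was not measured, so these values are not the background level of a cell.

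CD8 T cells carried the highest Pdcd1 level of the 10 deposited cell types, with 332 ± 31.6 CPM (SD, n = 6 mice), followed by CD4 T cells with 228 ± 76.6 CPM and Tregs with 106 ± 82.9 CPM. CD4 values overlapped those of CD8 cells, since the highest CD4 mouse stood at 364 CPM. NK cells held 19.4 ± 8.98 CPM and macrophages 1.31 ± 0.652 CPM. RNA outside cells held 23 CPM of Pdcd1, and its part in these levels was not tested. Lag3 was at similar levels in CD8 T cells (114 ± 13.9 CPM), Tregs (107 ± 91.7 CPM) and plasmacytoid dendritic cells (106 ± 54.3 CPM, 21 cells in all), whose ranges overlapped. It was lower in CD4 T cells (51.0 ± 17.9 CPM) and NK cells (18.1 ± 3.87 CPM).

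Havcr2 and Entpd1 followed another order, led by myeloid cells. Havcr2 was highest in cDC2, a dendritic cell type (347 ± 53.1 CPM), then cDC1 (317 ± 121 CPM), monocytes (257 ± 18.5 CPM), Tregs (193 ± 107 CPM), macrophages (183 ± 10.8 CPM) and CD8 T cells (129 ± 24.5 CPM). Neighbours in that order overlapped between mice. Macrophages and monocytes, which are not neighbours in it, did not: the highest macrophage value was 197 CPM and the lowest monocyte value 235 CPM. Entpd1 was highest in monocytes (343 ± 37.5 CPM), macrophages (288 ± 37.5 CPM), cDC1 (257 ± 76.8 CPM), Tregs (216 ± 136 CPM) and cDC2 (161 ± 27.8 CPM), against 113 ± 10.3 CPM in CD8 T cells and 43.5 ± 8.15 CPM in NK cells.

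Tigit, Tox and Cd160 were mostly lymphocyte genes, with means of at most 0.928 CPM in macrophages, 0.629 CPM in monocytes and 1.46 CPM in cDC2. Tigit was highest in Tregs (156 ± 117 CPM), then CD4 T cells (31.0 ± 29.4 CPM), CD8 T cells (22.7 ± 4.83 CPM) and NK cells (18.0 ± 4.49 CPM), and the last 3 overlapped. The highest Treg value, 360.1 CPM in the GITR/Syn GA-aFuc mouse, came from 8 UMIs in 3 cells. Without Untreated replicate 2, whose 12 CD4 T cells held 6 Tigit UMIs, the CD4 mean was 19 CPM, below that of CD8 T cells. Tox ranged more widely between mice, with 413 ± 572 CPM in Tregs, 319 ± 177 CPM in CD4 T cells, 136 ± 67.5 CPM in CD8 T cells and 64.0 ± 11.1 CPM in NK cells. The Treg mean rested on the GA-aFuc mouse, at 1538 CPM from 3 cells, with 35 of its 41 UMIs in 1 cell. Without that mouse it was 188 CPM, below the CD4 mean. Cd160 had similar means in CD8 T cells (49.2 ± 5.46 CPM), NK cells (49.3 ± 17.7 CPM) and CD4 T cells (48.6 ± 77.9 CPM). In the CD4 mean 1 mouse, N297A replicate 2, held 205 CPM from 18 UMIs, while the other 5 lay between 0 and 41.0 CPM, with a mean of 17.3 CPM. Tregs held 0 Cd160 UMIs among 490976.

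**Figure D1:**
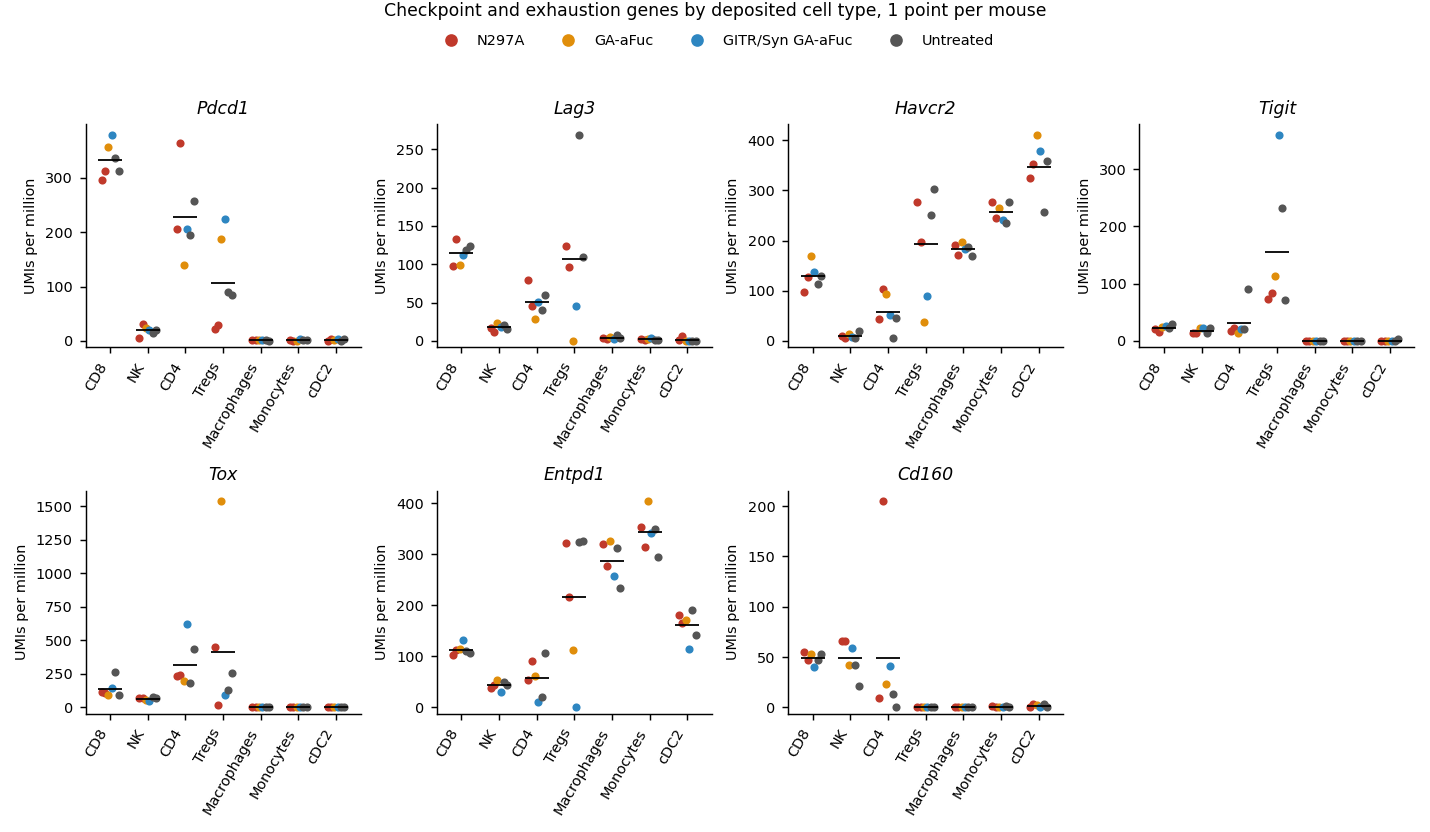
Levels of the 7 genes in 7 deposited cell types. Each point is 1 mouse, coloured by treatment, the vertical axis is CPM (linear, a scale per panel) and the black line is the mean of 6 mice; Pdcd1 peaks in CD8 cells (mean 332 CPM), while Havcr2 and Entpd1 peak in myeloid cells (means 347 CPM in cDC2 and 343 CPM in monocytes).

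Within CD8 T cells the receptors were graded across the 5 deposited clusters. Cluster 16, with Nedd9 at 691 CPM, had the most: 454 CPM of Pdcd1, 166 CPM of Lag3, 169 CPM of Havcr2 and 29.4 CPM of Tigit over its 291 cells. Cluster 33, led by the granzymes Gzmc, Gzmd and Gzme, followed with 357 CPM of Pdcd1, 133 CPM of Lag3 and 143 CPM of Havcr2. Cluster 44 had 317 CPM of Pdcd1, and cluster 38, led by cell cycle genes such as Mki67 (627 CPM), had 265 CPM. Cluster 23 had the least, 110.2 CPM of Pdcd1, 21.6 CPM of Lag3 and 29.5 CPM of Havcr2 in 151 cells. These cells were led by Klra1, a lectin receptor best known from NK cells (133 CPM, against 0.642 CPM in the other CD8 clusters together), and their 12 leading genes also held the NK cell receptor genes Klra7 (132 CPM), Klra9 (55.7 CPM) and Klrb1c (59.1 CPM). Among the same 12 were Tcf7, a transcription factor of memory and progenitor T cells (101 CPM, against 1.21 CPM in cluster 16), and S1pr1, a receptor for leaving tissue (96.6 CPM against 0.805 CPM). The clusters were made from the same transcripts, so their levels are a description with no test.

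The gap between clusters 16 and 23 held in every mouse for Pdcd1, Lag3 and Havcr2. Pdcd1 in cluster 16 ran from 366 to 488 CPM over the 6 mice (median 454), against 76.1 to 156 CPM in cluster 23 (median 128). Lag3 ran from 134 to 268 CPM in cluster 16 (median 162), against 7.22 to 41.5 CPM in cluster 23 (median 26.4). Havcr2 ran from 125 to 231 CPM in cluster 16 (median 158), against 14.4 to 63.2 CPM in cluster 23 (median 19.6). None of these ranges overlapped. Tigit did overlap, at 20.3 to 40.2 CPM in cluster 16 and 0 to 37.0 CPM in cluster 23, from 0 to 4 UMIs per mouse in cluster 23.

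Tox, Entpd1 and Cd160 were graded differently. Entpd1 had 139 CPM in cluster 16, 147 CPM in cluster 44 and 61.4 CPM in cluster 23, and the mice of clusters 16 and 23 overlapped. Tox was 176 CPM in cluster 16 and 203 CPM in cluster 23, but 1 mouse carried the cluster 23 value. Untreated replicate 1 had 676 CPM of Tox there, against 45.6 to 156 CPM in the other 5 mice. Cd160 ran against the receptors, with 67.1 CPM in cluster 23 and 39.5 CPM in cluster 16, although the mice overlapped (39.7 to 122 CPM against 28.1 to 51.0 CPM). Markers of other cells also differed between the clusters. The 5 NK markers together reached 396 to 3428 CPM per mouse in cluster 23 and 300.4 to 602 CPM in cluster 16. The 3 gamma-delta T cell markers reached 60.9 to 239 CPM in cluster 23 and 4.46 to 40.6 CPM in cluster 16, with no overlap. The 6 macrophage markers reached 623 to 1575 CPM in cluster 23 and 432 to 1578 CPM in cluster 16. The part of other cells in these levels was not tested. Cd8a was 332 CPM in cluster 23 and 800.3 CPM in cluster 16.

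**Figure D2:**
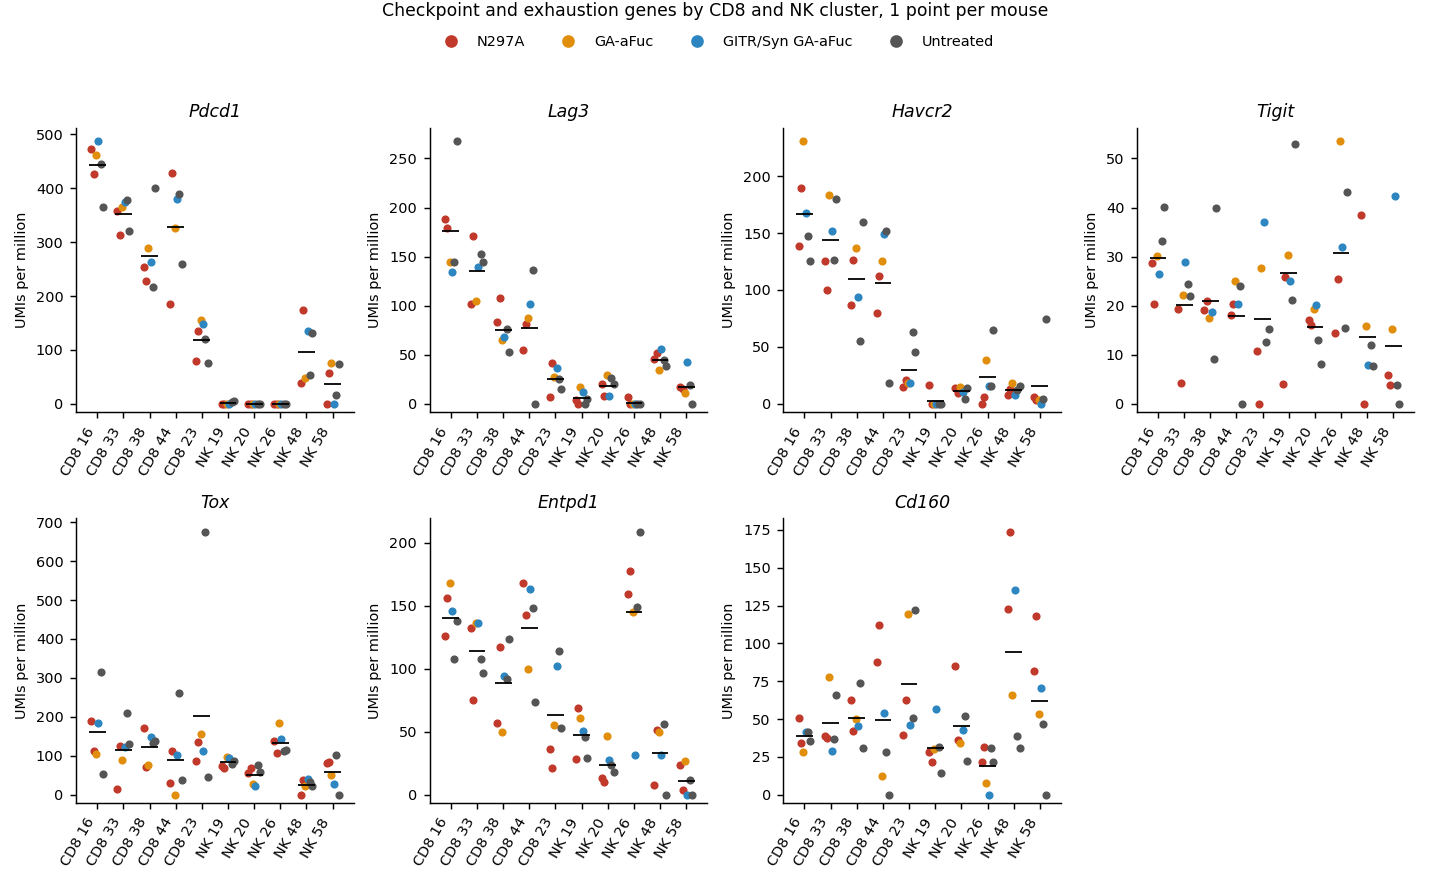
Levels of the 7 genes in the 5 CD8 and 5 NK clusters. Each point is 1 mouse, coloured by treatment, the vertical axis is CPM (linear, a scale per panel) and the black line is the mean over mice; Pdcd1, Lag3 and Havcr2 step down to CD8 cluster 23 (pooled 110.2, 21.6 and 29.5 CPM), and the single high Tox point there is Untreated replicate 1 at 676 CPM.

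Promoter entries matched 5 of the 7 genes by symbol, on build GRCm38.p6, which is not the GRCm39 build of the counts. The receptors Pdcd1, Havcr2 and Tigit, with 1 entry each, are printed, 5′ to 3′ on the gene's strand, from 250 bases before the start to 50 after it, because their levels are compared throughout. Capitals mark GGAAA on either strand (TTTCC where it lies on the other strand), the core that NFAT factors of the T cell receptor pathway bind. Of 32851 promoters of 300 bases, 61.3% hold it. Pdcd1 lies at chr1:94052504-94052803 on the minus strand, Havcr2 at chr11:46454681-46454980 on the plus strand and Tigit at chr16:43664135-43664434 on the minus strand.
Pdcd1: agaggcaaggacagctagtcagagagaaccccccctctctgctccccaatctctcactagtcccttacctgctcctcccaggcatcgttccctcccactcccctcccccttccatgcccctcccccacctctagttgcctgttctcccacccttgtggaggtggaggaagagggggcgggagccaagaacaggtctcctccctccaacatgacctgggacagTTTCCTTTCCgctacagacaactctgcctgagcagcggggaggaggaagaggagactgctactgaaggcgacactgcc
Havcr2: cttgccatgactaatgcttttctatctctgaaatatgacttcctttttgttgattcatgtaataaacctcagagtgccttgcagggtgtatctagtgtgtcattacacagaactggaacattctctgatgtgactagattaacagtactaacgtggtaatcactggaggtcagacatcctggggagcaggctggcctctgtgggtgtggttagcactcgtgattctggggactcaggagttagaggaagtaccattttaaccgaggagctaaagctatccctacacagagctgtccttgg
Tigit: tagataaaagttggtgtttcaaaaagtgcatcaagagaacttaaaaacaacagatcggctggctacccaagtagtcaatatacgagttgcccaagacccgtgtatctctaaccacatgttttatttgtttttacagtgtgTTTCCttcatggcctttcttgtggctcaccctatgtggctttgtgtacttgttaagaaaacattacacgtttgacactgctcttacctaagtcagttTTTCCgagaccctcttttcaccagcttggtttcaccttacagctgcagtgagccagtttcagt
The Pdcd1 window holds 2 matches, side by side just before the start, the Tigit window 2 and the Havcr2 window 0. With most promoters holding the motif, these matches are a description of the sequence and say nothing of binding.

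NK cells were set against CD8 T cells of the same mice. In the 5 NK clusters Pdcd1 was found at 0 UMIs in clusters 20 and 26, at 2 UMIs in cluster 19 and at 81.1 CPM in cluster 48 and 39.0 CPM in cluster 58. Cluster 48 also had the most Cd160 (81.1 CPM) and Lag3 (43.0 CPM) of the NK clusters, and its Pdcd1 spanned 38.5 to 174 CPM over the mice. Its summed CD8 T markers were 1055 CPM in N297A replicate 1, whose Pdcd1 was the lowest at 38.5 CPM, and 0 in Untreated replicate 2, whose Pdcd1 was 132 CPM. These mice had 11 and 8 cells in the cluster. All NK cells of N297A replicate 1 held 5 Pdcd1 UMIs, 4 of them in 1 cell. The part of T cell RNA in the Pdcd1 of cluster 48 was not tested. Cluster 26 had the most Tox (130.1 CPM) and Entpd1 (157 CPM). It had 590.0 to 3499 CPM of the 6 macrophage markers together, against 242 to 1099 CPM in cluster 20, whose Entpd1 was 25.0 CPM. The part of macrophage RNA in that level was not tested.

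Against NK cells, CD8 T cells had 5 of the 7 genes higher and 0 lower (edgeR quasi-likelihood test, mouse as a block, adjusted p under 0.05 over all 9676 genes tested), where 32.4% of all genes were called. Pdcd1 had 296 to 379 CPM in CD8 T cells (median 324), against 5.10 to 32.1 CPM in NK cells (median 20.5). The log2 change was 4.02 (SE 0.20, edgeR adjusted p = 7.1e-07), higher in 6 of 6 mice with no overlap. Havcr2 had 97.1 to 169.7 CPM in CD8 T cells, against 6.53 to 20.1 CPM in NK cells, a log2 change of 3.56 (SE 0.15, edgeR adjusted p = 2.02e-16). Lag3 rose by 2.58 (SE 0.14, edgeR adjusted p = 1.38e-14), with 98.0 to 133 CPM in CD8 T cells and 12.2 to 23.4 CPM in NK cells. Pdcd1, Lag3 and Havcr2 thus differed between the 2 cell types by more than the spread between mice.

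Entpd1 and Tox differed by less. Entpd1 rose by 1.29 on the log2 scale (SE 0.11, edgeR adjusted p = 2.23e-10) and Tox by 0.99 (SE 0.20, edgeR adjusted p = 0.00613). Tigit and Cd160 did not pass. Tigit changed by 0.29 (interval from its SE, -0.05 to 0.63, edgeR adjusted p = 0.223) and Cd160 by -0.03 (-0.38 to 0.31, edgeR adjusted p = 0.913). All 5 calls were also made by DESeq2 and without each mouse in turn.

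Other genes of the pathway are read against the 32.4% of all genes called in the same comparison. Of 12 inhibitory receptors, 10 were tested, and 6 were higher and 3 lower in CD8 T cells, with a median log2 change of 0.83 against -0.01 over all genes. Ctla4 rose by 1.83 and Cd5, which tunes T cell receptor signals, by 6.94, while Klrg1 fell by 2.64 and Cd244a by 1.57. Of 14 exhaustion transcription factors tested, 6 were higher and 4 lower (median 0.06), with Irf4 at 4.83, and Eomes, a factor of NK and memory T cells, at -3.53. Of 8 progenitor genes tested, 3 were higher and 5 lower (median -1.14): Il7r rose by 4.10 and Tcf7 fell by 1.55. Of 10 effector and late exhaustion genes, 7 were higher and 0 lower (median 1.32), among them Cxcr6 at 4.42 and Rgs16 at 2.00. Of 8 ligands and partners tested, 6 were higher and 1 lower (median 0.30).

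In the thinned data, in which each cell is reduced to 2000 UMIs so that depth is equal, 45.3% of CD8 T cells had a Pdcd1 UMI (411 of 907, exact binomial 95% interval 42.0 to 48.6), against 2.49% of NK cells (18 of 723). Macrophages, where Pdcd1 was low (1.31 CPM), showed 0.392% (16 of 4086), and whether this was RNA of their own was not tested. Before thinning, the Pdcd1 shares were 79.4% (CD8), 5.95% (NK) and 1.68% (macrophages), at median depths of 8158, 7880.0 and 15222 UMIs per cell. Thinned shares of CD8 T cells were 19.1% for Lag3, 18.4% for Havcr2, 5.29% for Tigit, 17.4% for Tox, 19.2% for Entpd1 and 7.06% for Cd160. In macrophages they were 0.906% for Lag3, 0.0734% for Tigit, 0.0979% for Tox and 0.122% for Cd160. Havcr2 and Entpd1 were high in macrophages, which give no low comparison for these genes. Intervals cover counting error only.

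Cells with several receptors were counted. Such shares rise with the share of each single gene. The share expected if the genes were found independently was not computed. At 2000 UMIs per cell, 61.3% of CD8 T cells held at least 1 of Pdcd1, Lag3, Havcr2 and Tigit, 23.2% held at least 2 (210 of 907), and 3.53% at least 3. At least 2 were found in 13.7% of Tregs (10 of 73), 9.47% of CD4 T cells, 0.415% of NK cells (3 of 723) and 0.538% of macrophages (22 of 4086). Among CD8 clusters the share with at least 2 was 35.7% in cluster 16, 26.2% in cluster 33, 16.9% in cluster 44, 15.8% in cluster 38 and 6.62% in cluster 23. Without thinning the share was 69.7% in CD8 T cells, against 7.19% in NK cells.

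By mouse, the share of CD8 T cells with at least 2 receptors was 16.7% and 16.5% under N297A, 31.3% under GA-aFuc, 28.4% under GITR/Syn GA-aFuc and 22.1% and 28.0% in Untreated. Both N297A mice were below the other 4. N297A minus Untreated was -8.45 percentage points (16.6% against 25.1%, two-sided exact permutation p = 0.333, the smallest p that 2 against 2 mice allow). The direction turned at 1000 UMIs per cell, where the difference was 1.72 points (10.3% against 8.54%), and was -7.01 points without thinning. Cluster 23, where these receptors were low, made up 21.7% and 18.3% of the CD8 T cells under N297A, 13.4% under GA-aFuc, 12.3% under GITR/Syn GA-aFuc and 14.1% and 20.7% in Untreated. Its part in the shares was not tested.

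**Figure D3:**
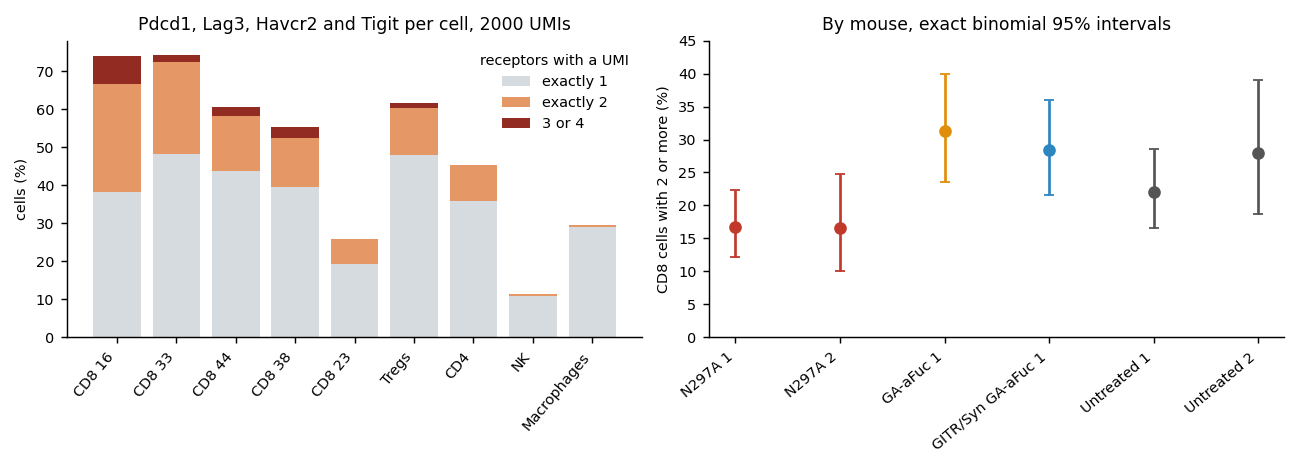
Receptors detected per cell after thinning to 2000 UMIs. Left, stacked bars give the percentage of cells of a cluster or type with 1, 2, or 3 or 4 of Pdcd1, Lag3, Havcr2 and Tigit; right, each point is the percentage of 1 mouse's CD8 T cells with at least 2, with exact binomial 95% intervals. The share with at least 2 ranges from 35.7% in CD8 cluster 16 to 0.415% in NK cells, and the N297A mice are at 16.7% and 16.5%.

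Tregs differed from CD8 T cells in the mix of receptors. In the 4 mice with at least 10 cells of both types (N297A and Untreated, 2 each), 3 of the 7 genes were higher in Tregs and 2 lower, where 20.6% of all 7424 genes were called. Pdcd1 had 21.9 and 30.0 CPM in N297A Tregs and 89.7 and 84.4 CPM in Untreated Tregs, against 296 to 336 CPM in CD8 T cells of those mice. The Treg values came from 3 and 5 UMIs under N297A and 5 and 7 UMIs in Untreated. A single cell held 4 of the 5 and 5 of the 7 Untreated UMIs, and Tregs were not compared by treatment. From CD8 T cells to Tregs the log2 change was -2.89 (SE 0.29, edgeR adjusted p = 6.58e-12). Tigit had 72.4 to 233 CPM in Tregs, against 15.0 to 29.0 CPM in CD8 T cells, and rose by 2.13 (SE 0.38, edgeR adjusted p = 1.04e-05). Neither gene overlapped between the types.

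Entpd1 had 216 to 326 CPM in Tregs, against 102 to 112 CPM in CD8 T cells of the same 4 mice, and rose by 1.26 (SE 0.21, edgeR adjusted p = 5.77e-06). Havcr2 rose by 0.96 (SE 0.22, edgeR adjusted p = 0.000693), but single cells carried much of it: 16 of 38 UMIs in N297A replicate 1 and 14 of 33 in N297A replicate 2 came from 1 cell. Without the top cell of each mouse the change was 0.31 and the call was lost (edgeR adjusted p = 0.447). The 6 macrophage markers together reached 951 to 6243 CPM in Tregs of these mice and 586 to 880.3 CPM in CD8 T cells, and their part in Havcr2 and Entpd1 was not tested. Lag3 (0.03, -0.49 to 0.55) and Tox (0.38, -1.39 to 2.15) did not pass.

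Cd160 was not found in Tregs. With 0 UMIs among 442100 in the 4 mice, a floor of 3 counts over the group gives 6.79 CPM, so Cd160 was at least 7.46-fold lower than the 50.7 CPM of CD8 T cells (295 UMIs). The call was made at an edgeR adjusted p of 2.7e-06. Among other inhibitory receptors 9 of 12 were tested, and 6 were higher in Tregs and 3 lower (median 1.43, against -0.07 over all genes), with Ctla4 at 1.61, Klrg1 at 5.07 and Cd96 at -2.24. Of 13 transcription factors tested 5 were higher and 3 lower (median 0.05), and Ikzf2, a Treg factor, rose by 2.33. Of 7 progenitor genes 2 were higher and 3 lower (median 0.03), of 8 ligands and partners 1 and 2 (median 0.03), and of 10 effector genes 1 and 4 (median -0.56).

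Cells with the CD4 name were lower than CD8 T cells in 4 of the 7 genes and higher in 1, where 12.5% of all 7984 genes were called. Pdcd1 fell by 0.74 (SE 0.18, edgeR adjusted p = 0.00255), Lag3 by 1.34 (SE 0.26, edgeR adjusted p = 7.28e-05), Havcr2 by 1.33 (SE 0.26, edgeR adjusted p = 0.000109) and Entpd1 by 1.22 (SE 0.27, edgeR adjusted p = 0.000863). Lag3 had 28.1 to 80.1 CPM in CD4 T cells, against 98.0 to 133 CPM in CD8 T cells, with no overlap. Tox was higher by 1.06 (SE 0.28, edgeR adjusted p = 0.0180), with 181 to 625 CPM in CD4 T cells, against 90.5 to 267 CPM in CD8 T cells. That call was lost without the block (adjusted p = 0.124), without N297A replicate 1 (0.113), without N297A replicate 2 (0.0701) and without Untreated replicate 2 (0.0512). The 2 CD4 clusters stood apart: cluster 35 had 2.58 CPM of Lag3 and 111 CPM of Pdcd1, and cluster 59 had 97.5 CPM of Lag3 and 319 CPM of Pdcd1. Of 8 progenitor genes tested, 6 were higher in CD4 T cells and 0 lower (median 1.00, against -0.04 over all genes), among them Tcf7 at 1.91 and Il7r at 1.02. In clusters 35 and 59 Il7r was 587 and 227 CPM, Lef1 152 and 44.3 CPM, Ccr7 30.9 and 239 CPM and Bach2 312 and 449 CPM. Tcf7 (59.3 and 47.3 CPM) and Slamf6 (67.0 and 56.1 CPM) were closer. The part of each cluster in these calls was not tested. The other lists had 2 higher and 2 lower of 10 inhibitory receptors (median 0.42), 5 and 3 of 14 transcription factors (0.15), 0 and 2 of 7 ligands and partners (-0.26) and 0 and 3 of 10 effector genes (-0.38).

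Set against CD4 T cells in the same 4 mice, Tregs had 2 genes higher and 1 lower among 5 tested, where 6.98% of all 2767 genes were called. Havcr2 rose by 2.41 (SE 0.46, edgeR adjusted p = 0.00334) and Entpd1 by 2.20 (SE 0.40, edgeR adjusted p = 0.00217), and Pdcd1 fell by 2.41 (SE 0.42, edgeR adjusted p = 0.00175). The 6 macrophage markers together stood at 1934 and 6243 CPM in N297A Tregs and 951 and 2992 CPM in Untreated Tregs, against 757 and 547 CPM in N297A CD4 T cells and 2225 and 589 CPM in Untreated ones. They were higher in Tregs in 3 of the 4 mice, and their part in Havcr2 and Entpd1 was not tested. Lag3 missed the threshold at 1.30 (SE 0.43, edgeR adjusted p = 0.0824), and Tigit and Cd160 had too few UMIs for the test. Of the lists, 3 of 4 inhibitory receptors tested were higher (median 1.42, against 0.00 over all genes), 2 of 12 transcription factors (-0.01), 1 of 7 ligands and partners (0.25), 1 of 5 progenitor genes with 1 lower (-0.52), and 2 of 8 effector genes with 1 lower (1.54).

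**Figure D4:**
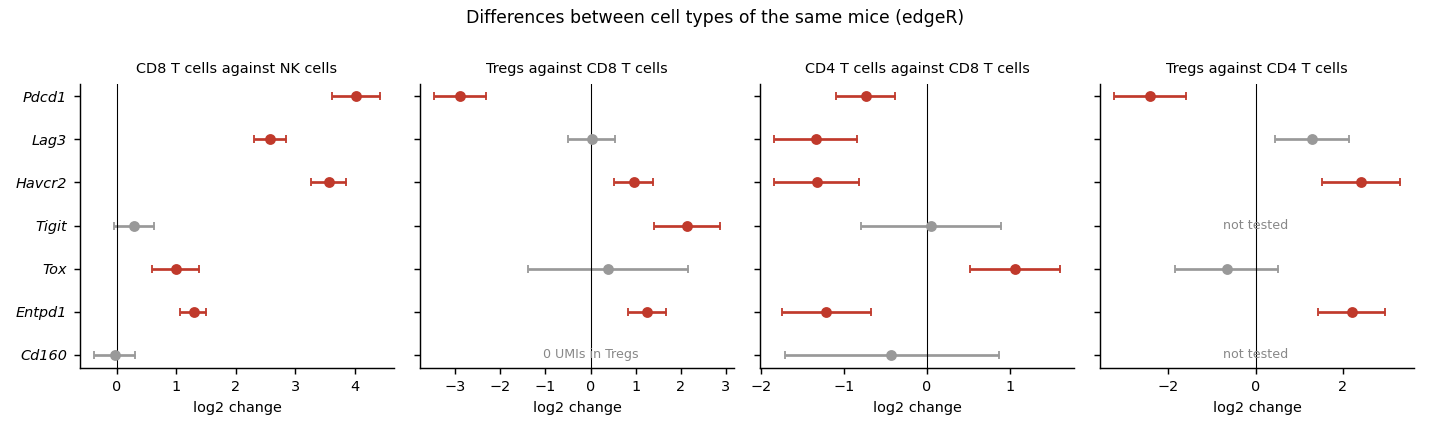
Fitted log2 changes of the 7 genes between cell types of the same mice. Points are edgeR estimates with intervals from their standard errors, red where the adjusted p is under 0.05 and grey where it is not; positive values are higher in the cell type named first in each panel's title, as Pdcd1 at 4.02 in CD8 T cells against NK cells and at -2.89 in Tregs against CD8 T cells.

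Myeloid cells carried Havcr2 and Entpd1. In macrophages against monocytes 4 of the 7 genes could be tested, and 1 was higher and 2 lower, where 56.6% of all 12900 genes were called. Havcr2 had 169 to 197 CPM in macrophages, against 235 to 277 CPM in monocytes, and fell by 0.57 (SE 0.04, edgeR adjusted p = 2.04e-10). Entpd1 fell by 0.35 (SE 0.04, edgeR adjusted p = 1.44e-07), with 233 to 325 CPM in macrophages and 295 to 404 CPM in monocytes, which overlapped between mice. Lag3 was called higher in macrophages (0.90, SE 0.31, edgeR adjusted p = 0.0236) at 2.21 to 8.09 CPM, against 0.717 to 3.47 CPM in monocytes. Both Lag3 levels were low, and the part of RNA outside cells (15.5 CPM of Lag3) in them was not tested. The Lag3 call was lost without the block, with hashtag shares of at least 90%, without GA-aFuc replicate 1, without Untreated replicate 1 or 2, and with DESeq2 (adjusted p from 0.0511 to 0.114).

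In cDC2 against monocytes 2 genes could be tested and both were called, where 34.0% of all 10540 genes were called. Havcr2 rose by 0.46 (SE 0.09, edgeR adjusted p = 0.000149), with 256 to 411 CPM in cDC2. Entpd1 fell by 1.07 (SE 0.11, edgeR adjusted p = 1.09e-10), with 115 to 191 CPM in cDC2. Across the myeloid clusters Havcr2 ran from 23.5 CPM in the pDC cluster and 47.6 CPM in mregDC, a mature dendritic cell, to 457 CPM in cDC2 cluster 46. Entpd1 ran from 23.8 CPM in mregDC to 566 CPM in monocyte cluster 27. Of 10 ligands and partners, 9 were tested in macrophages against monocytes, and 1 was higher and 7 lower (median -0.57, against 0.02 over all genes), with Cd274 at -0.94. In cDC2 against monocytes 3 of 10 were higher and 3 lower (median -0.30, against -0.05).

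Treatment was compared in CD8 T cells, NK cells, macrophages and monocytes, each with at least 20 cells in every mouse, in 1 fit of the 6 mice for each type. The cDC2 also reached that number (26 to 47 cells per mouse) and were not compared by treatment. In CD8 T cells 0 of the 7 genes passed under N297A, GA-aFuc or GITR/Syn GA-aFuc against Untreated with edgeR, and 0 with DESeq2, where 0.0205%, 0.0922% and 0.154% of all 9763 genes were called. At an unadjusted p under 0.05 there were 0, 1 and 0 of the 7 genes, where 4.03%, 4.31% and 5.62% of all genes reached it. Pdcd1 had 296 and 312 CPM under N297A, 357 CPM under GA-aFuc and 379 CPM under GITR/Syn GA-aFuc, against 336 and 312 CPM in Untreated. Lag3 had 98.0 and 133 CPM under N297A, 99.7 CPM under GA-aFuc and 112 CPM under GITR/Syn GA-aFuc, against 119 and 124 CPM in Untreated. For Lag3 the N297A mice lay on both sides of the Untreated mice, and for Pdcd1 each group had a mouse at 312 CPM.

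Havcr2 in CD8 T cells had the smallest p of the 21 CD8 values. It stood at 169.7 CPM in the GA-aFuc mouse and 137 CPM in the GITR/Syn GA-aFuc mouse, at 97.1 and 127 CPM under N297A, and at 113 and 129.8 CPM in Untreated. The GA-aFuc change was 0.52 (SE 0.18, unadjusted p = 0.00860, edgeR adjusted p = 1.00, a single treated mouse). Tigit had 20.2 and 15.0 CPM under N297A, below both Untreated mice at 22.0 and 29.0 CPM, a change of -0.40 (interval -1.0 to 0.19). Under N297A the intervals of the fitted changes were -0.32 to 0.19 for Pdcd1, -0.38 to 0.25 for Lag3 and -0.41 to 0.22 for Havcr2. On simulated counts of this comparison 49% of 2-fold changes and 93% of 4-fold changes were recovered, and for GA-aFuc 27% and 80%. The changed genes were drawn at random, with the average spread at their level. These shares are thus not those of the 7 genes, and GITR/Syn GA-aFuc was not simulated.

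Tox in CD8 T cells was set by 1 Untreated mouse. It had 111 and 104 CPM under N297A, 90.5 CPM under GA-aFuc and 147 CPM under GITR/Syn GA-aFuc, against 267 and 93.9 CPM in Untreated. Untreated replicate 1 was thus above every other mouse, and a single cell held 53 of its 485 Tox UMIs. After thinning, 30.2% of its CD8 T cells had a Tox UMI, against 7.32% in Untreated replicate 2 and 9.70% to 20.4% in the 4 treated mice. Its Tox was also the highest in clusters 16, 23, 33 and 44, and not in cluster 38.

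In NK cells 0 of the 7 genes passed with edgeR or DESeq2 under N297A, GA-aFuc or GITR/Syn GA-aFuc, where 0.0108%, 0.0651% and 0.0434% of all 9223 genes were called. Unadjusted p-values under 0.05 numbered 1, 0 and 1, both for Cd160, where 3.35%, 4.99% and 5.78% of all genes reached it. Cd160 had 66.3 and 65.8 CPM under N297A, 41.8 CPM under GA-aFuc and 58.9 CPM under GITR/Syn GA-aFuc, against 41.8 and 21.1 CPM in Untreated. Both N297A mice were above both Untreated mice. The change was 0.99 under N297A (SE 0.25, unadjusted p = 0.000911, edgeR adjusted p = 1.00) and 0.88 under GITR/Syn GA-aFuc (SE 0.33, unadjusted p = 0.0158, edgeR adjusted p = 0.825). Without the filter on low counts the N297A change was called (edgeR adjusted p = 0.0302).

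The Cd160 levels differed more in the NK clusters with Pdcd1. In clusters 48 and 58 together Cd160 was 99.5 and 139 CPM under N297A, 60.6 CPM under GA-aFuc and 112 CPM under GITR/Syn GA-aFuc, against 42.2 and 25.7 CPM in Untreated. These values rest on 9 to 42 cells and 4 to 58 UMIs a mouse. The 5 CD8 T markers in cluster 48 stood at 1055 and 277 CPM under N297A, 57.8 CPM under GA-aFuc and 438 CPM under GITR/Syn GA-aFuc, against 109.7 and 0 CPM in Untreated. In cluster 58 they stood at 40.8 and 114 CPM under N297A, 110.2 CPM under GA-aFuc and 282 CPM under GITR/Syn GA-aFuc, against 192 and 74.7 CPM in Untreated. In cluster 48, as for Cd160, both N297A mice and the GITR/Syn GA-aFuc mouse were above both Untreated mice, and the part of T cell RNA in the Cd160 levels was not tested. In clusters 19, 20 and 26 they were 51.6 and 31.5 CPM under N297A, 29.6 CPM under GA-aFuc and 42.0 CPM under GITR/Syn GA-aFuc, against 41.6 and 20.3 CPM in Untreated, where N297A and Untreated overlapped. Splitting the clusters this way was chosen after the values were seen and has no test.

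**Figure D5:**
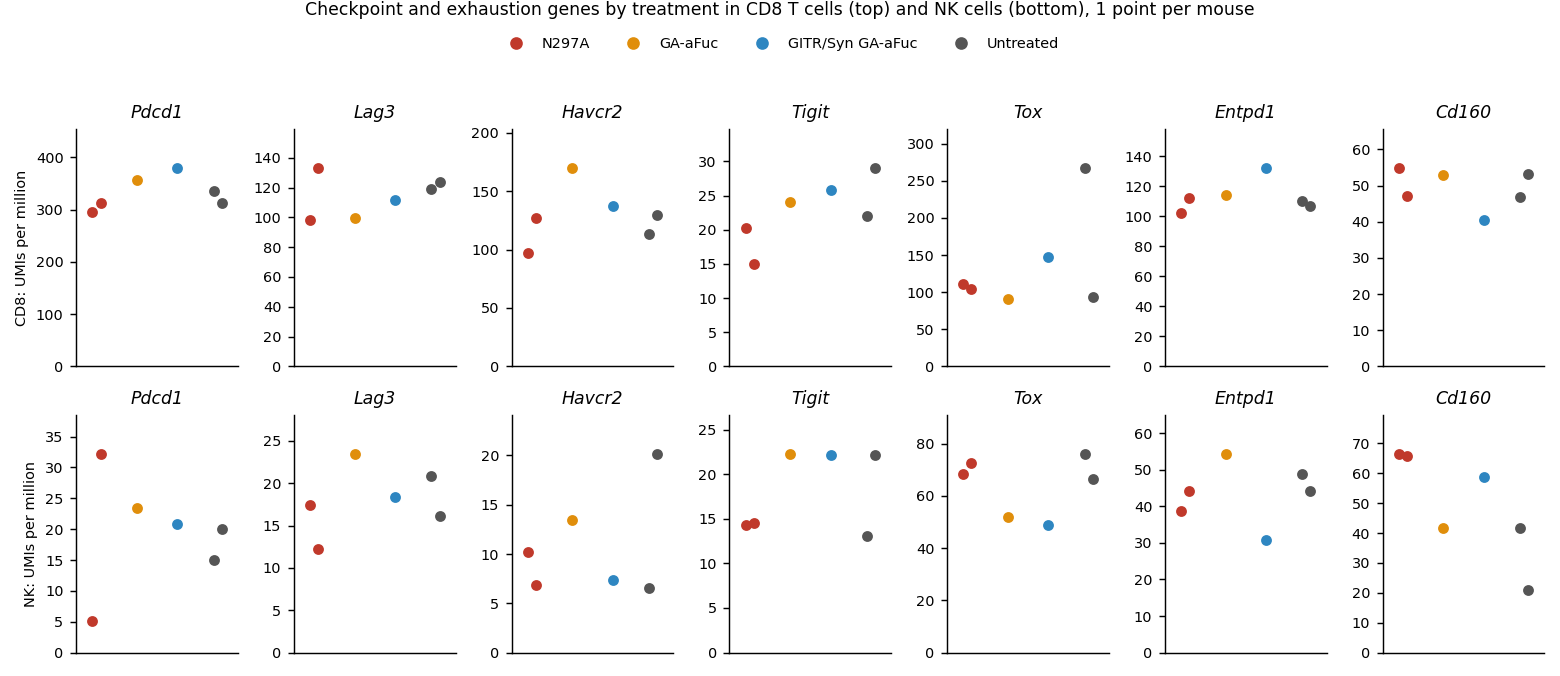
The 7 genes by treatment in CD8 T cells (upper row) and NK cells (lower row). Each point is 1 mouse, the vertical axis is CPM from 0 (linear, a scale per panel) and treatments run from left to right in the order of the legend; the high Tox point in CD8 T cells is Untreated replicate 1 at 267 CPM, and the N297A mice have NK Cd160 at 66.3 and 65.8 CPM.

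In macrophages 5 of the 7 genes had enough UMIs, and 0 passed under the 3 antibodies with edgeR or DESeq2, where 0%, 0.0148% and 0.0148% of all 13526 genes were called. Unadjusted p-values under 0.05 numbered 1, 0 and 1 among the members, where 3.33% (450 genes), 4.88% and 5.10% of all genes reached it. Both were for Lag3, at 3.51 and 2.73 CPM under N297A, 5.63 CPM under GA-aFuc and 2.21 CPM under GITR/Syn GA-aFuc, against 8.09 and 3.86 CPM in Untreated. The changes were -0.93 (SE 0.37, unadjusted p = 0.0388) under N297A and -1.43 (SE 0.50, unadjusted p = 0.0229) under GITR/Syn GA-aFuc, with edgeR adjusted p of 0.997 and 0.907. In monocytes 4 genes were tested and 0 passed with either tool, where 0.00876%, 0.193% and 0.210% of all 11422 genes were called. Entpd1 had 404 CPM under GA-aFuc, against 350.3 and 295 CPM in Untreated, a change of 0.31 (SE 0.13, unadjusted p = 0.0357, edgeR adjusted p = 0.665), where 7.14% of all genes had an unadjusted p under 0.05.

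Of the 57 other pathway genes, 50 were tested in CD8 T cells, and 0 passed under N297A or GA-aFuc. Under GITR/Syn GA-aFuc 1 rose and 2 fell, where 0.154% of all genes were called, all from a single treated mouse. Lgals3, which encodes galectin-3, rose by 1.04 (SE 0.14, edgeR adjusted p = 0.000324). Bach2, a factor that restrains effector differentiation, fell by 1.30 (SE 0.19, edgeR adjusted p = 0.000763), and Ccr7, a lymph node homing receptor, fell by 2.42 (SE 0.51, edgeR adjusted p = 0.0462). The median change of the 8 progenitor genes tested was -1.05 there, against -0.33 under N297A and -0.31 under GA-aFuc, comparisons that share the Untreated mice. In NK cells and macrophages 0 of 45 and 0 of 51 tested passed under any antibody. In monocytes, where 0.193% and 0.210% of all genes were called under GA-aFuc and GITR/Syn GA-aFuc, Cd274 (PD-L1, the ligand of PD-1) rose by 0.83 under GA-aFuc (SE 0.13, edgeR adjusted p = 0.0353) and Il7r by 1.64 under GITR/Syn GA-aFuc (SE 0.21, edgeR adjusted p = 0.0343), and 0 of 45 passed under N297A.

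Across the 56 clusters with at least 20 cells, the genes most like the members other than Tox by Pearson correlation of log2(CPM + 1), among 6591 genes, are given as a description. The clusters share 1 library and differ in depth. Pdcd1 was most like Cxcr6 (r = 0.935), a chemokine receptor of tissue T cells, then Cd3e and Cd3g. Tigit was most like Zap70 (0.967), a kinase of the T cell receptor, then Gimap7 and Il27ra. Cd160 was most like Apol7e (0.933), Cd96 and Ctsw. Lag3 was most like Ech1 (0.817), Inpp4b and Slc2a3, of which Slc2a3 alone was also named with log2(CPM + 10). Havcr2 was most like Gm2a (0.857), Cd86 and Cd80, and Entpd1 like Csf3r (0.885), Nlrp3 and Sh3bp2, genes of myeloid cells in large part. Among the members, Tigit and Tox were the closest pair (0.961), Havcr2 and Entpd1 stood at 0.821, and Havcr2 and Pdcd1 at -0.287.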

How the data were processed

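The authors deposited raw UMI counts per gene and barcode, made with Cell Ranger 9.0.0 per the file headers, on GRCh38 and GRCm39 per the submitters' processing notes, with no normalization. A second deposited table gives treatment, cell type and cluster for 19210 entries; their filtering, clustering and naming steps are not given in the sources used here. Used as cells were the 8767 entries with at least 1000 mouse UMIs, less 33 whose strongest hashtag was that of a different treatment and less 18 entries sharing a barcode (34 barcodes occur more than once in the table). Each hashtag was taken as 1 mouse of the treatment most of its cells carry; replicates are numbered in hashtag order. No doublet caller was run.

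Sums of counts over the cells of each type in each mouse were fitted with edgeR 4.0.16 (R 4.3.3, limma 3.58.1; TMM, filterByExpr, robust quasi-likelihood test), with p-values adjusted by Benjamini-Hochberg over all genes tested. Treatment fits needed 20 cells per mouse and left 2 residual degrees of freedom; a treatment with 1 mouse was assumed to vary like the others. Cell type fits needed 10 cells of both types and had mouse as a block. The SE is the log2 change divided by the root of the F statistic, and intervals are normal ones from it. Whether mice of a treatment were caged or handled apart is not given, so p-values measure the spread between these mice. The members and lists were chosen with earlier results of these data known. A member was given its full statistics where its unadjusted p was under 0.05 or it was called, and for each member the 3 genes of highest likeness (at least 50 CPM in 1 cluster); those of Tox are not reported here. Members that overlap other genes in RefSeq are Tigit (Zbtb20), Tox (Gm11802) and Entpd1 (Gm16027 and 2 others); whether counting used strand is not given. Fits were tested on simulated data. DESeq2 1.42.0 and the other alternatives are given in the closing section.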

Additional observations from a re-analysis of the deposited data

Results flagged for a closer look

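Lag3 in plasmacytoid dendritic cells, a type too small for any comparison, stood at 108 CPM over all mice, against 15.5 CPM in RNA outside cells. It came from 23 UMIs in 15 of 21 cells, with at least 1 UMI in each of the 6 mice and at most 4 in a cell. The pDC genes Siglech and Ccr9 were at 1723 and 1554 CPM there. Havcr2 in cDC1, which entered no comparison either, stood at 328 CPM, against 75.4 CPM in RNA outside cells, from 294 UMIs in 41 of 47 cells and all 6 mice.

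For 2 genes the CPM of both N297A mice lay on one side of both Untreated mice in one cell type and on the other side in macrophages, where the values are a few UMIs; the difference between the types was not tested. Tigit averaged 17.6 CPM in N297A CD8 T cells and 25.5 CPM in Untreated ones, while in macrophages it had 4 and 3 UMIs under N297A and 1 and 1 UMI in Untreated. Cd160 averaged 66.05 CPM in N297A NK cells and 31.5 CPM in Untreated ones, while in macrophages it had 0.10 and 0.182 CPM under N297A and 0.193 and 0.359 CPM in Untreated. Those values come from 1 and 2 UMIs under N297A and 2 and 4 UMIs in Untreated, so 1 mouse of each treatment had the same count.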

How the results depend on the processing

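The counts of the 7 genes called in the 18 comparisons kept within 1.5 times under RLE scaling, no filter on low counts, DESeq2, each mouse left out in turn, the 4 changes to the cells and no mouse block, with 1 exception: without the filter 1 gene was called under N297A in NK cells, in place of 0 (Cd160). In Tregs against CD8 T cells Havcr2, in CD4 T cells against CD8 T cells Tox, and in macrophages against monocytes Lag3 lost their calls as given in the report; the cause was not tested. The fits without the mouse block changed the calls of Tox and Lag3 in those 2 comparisons and no other. The N297A minus Untreated difference in CD8 T cells with 2 or more receptors was 1.72 percentage points at 1000 UMIs per cell, a reversal, and -5.48 to -11.4 points without each mouse. Leaving out each mouse for the mean levels in CD8, CD4, Treg and NK cells was added after the data were seen; it moved a mean by over 1.5 times for Tox in Tregs and for Tigit and Cd160 in CD4 T cells, as given in the report. Of the 3 genes most like each member, 12 of 21 were also named with log2(CPM + 10). Depth limits the small types: 12 to 24 CD4 T cells and 3 to 24 Tregs per mouse.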

Other observations

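Within CD8 T cells thinned to 2000 UMIs, the shares of cells with another receptor are given by whether a Pdcd1 UMI was found, as values with no test. Havcr2 was found in 24.3% of the 411 cells with a Pdcd1 UMI and in 13.5% of the 496 without one. Lag3 was found in 23.1% of the cells with Pdcd1 and in 15.7% of those without. Cd160 ran the other way at this depth, at 4.62% of the cells with Pdcd1 (19 cells) and 9.07% of those without (45 cells). Without thinning, where depth is not equal, that direction turned, at 24.7% of the cells with Pdcd1 and 22.5% of those without. Cells of the 5 clusters are pooled in these shares, and cluster 23 had, among the 5, both the lowest Pdcd1 level and the highest Cd160 level.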
